A study of Mus musculus with 292 samples.

Results

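The data were the brains of 292 F2 mice, each hybridised on 1 array of 2 colours against a common pool, and the comparison set the mice with the most Trem2 transcript against those with the least. Trem2 was measured by 1 probe. The arrays were ranked by that probe's log10 ratio separately among mouse numbers up to 212 (block 1, 151 arrays) and from 213 (block 2, 141 arrays), and the members were chosen by these values alone: the lowest and the highest 25% of each block were pooled. This gave 72 arrays in the low Trem2 group and 72 in the high Trem2 group, 144 of the 292 in all, with 37 of each from block 1 and 35 of each from block 2. The other 148 arrays were in neither group. All mice descended from an intercross of C57BL/6J and C3H/HeJ animals made in both directions, so every group held mice of mixed genotype with no engineered allele. Mice of both sexes were fed chow with 4% fat to week 8 and then for 12 weeks a Western diet (42% fat, 0.15% cholesterol), and they were killed at 20 weeks after a 12 h fast. Diet and age were therefore shared by both groups. The sex, cross direction and genotype of single mice were not given in the sources used here.

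Trem2 is a surface receptor that in the brain is carried chiefly by microglia, the resident macrophages of the tissue. It binds lipids, lipoproteins and cell debris and has no signalling tail of its own. It passes its signal through the adaptor Tyrobp to the kinase Syk and on to Plcg2. In mouse models of neurodegeneration, microglia depend on it to leave the homeostatic state, marked by genes such as Tmem119 and Cx3cr1, and to take up the damage-associated state with genes such as Itgax, Cst7 and Gpnmb. C1qa, C1qb and C1qc encode the chains of the complement component C1q, which microglia produce.

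Promoter sequences are shown for Trem2 and for the C1q genes that the promoter table held, because these genes were higher together in the same mice. Each line gives the 250 bases before the gene's start, 5′ to 3′ on the gene's strand, from RefSeq (assembly GRCm38.p6), at chr17:48346151-48346400 on the plus strand for Trem2 and, on the minus strand, chr4:136886201-136886450 for C1qb and chr4:136892915-136893164 for C1qc. Capitals mark GAGGAA or its reverse complement TTCCTC, the purine-rich core bound by PU.1, the product of Spi1 and a myeloid transcription factor.
Trem2: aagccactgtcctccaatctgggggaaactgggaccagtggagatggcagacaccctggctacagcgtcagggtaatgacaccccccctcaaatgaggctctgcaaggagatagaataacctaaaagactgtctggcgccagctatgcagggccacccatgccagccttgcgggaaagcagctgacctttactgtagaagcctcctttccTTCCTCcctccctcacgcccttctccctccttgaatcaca
C1qb: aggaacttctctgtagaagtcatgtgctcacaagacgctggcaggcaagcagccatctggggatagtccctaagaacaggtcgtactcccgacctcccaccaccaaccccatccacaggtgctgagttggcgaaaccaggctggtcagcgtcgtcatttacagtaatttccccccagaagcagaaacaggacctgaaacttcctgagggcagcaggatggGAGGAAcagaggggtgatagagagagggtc
C1qc: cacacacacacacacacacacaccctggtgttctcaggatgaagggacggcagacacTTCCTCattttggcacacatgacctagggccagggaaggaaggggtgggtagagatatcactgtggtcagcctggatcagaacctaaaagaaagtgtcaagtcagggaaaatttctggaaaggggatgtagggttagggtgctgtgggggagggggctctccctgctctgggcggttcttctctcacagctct
The motif was found 1 time in each, and its first base lay at -40 from the gene start in Trem2, -30 in C1qb and -193 in C1qc. Either strand of the motif was found in 23.25% of the 32851 windows of this length in the table. Of the 98 microglial genes described below, 79 had a promoter in the table and 29 of these (36.7%) held it. It stood in 11 of the 32 promoters of genes higher in the high Trem2 group, in 3 of the 5 promoters of genes lower there and in 15 of the 42 promoters of genes that did not pass the test. A match describes letters in a window and is no measurement of binding.

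Each value was read as the log10 of mouse over pool, so that a difference of 0.0414 corresponds to 1.1-fold. Neither the log base nor the direction is stated, so the direction of the ratios was not settled. Over all probes, 3.39% of pairs of arrays correlated under -0.3 (median r 0.109). Such pairs cannot tell a turned ratio from mice that lie on opposite sides of the pool. Turning the sign of every value would turn Trem2 as well, exchange the names of the groups and leave each difference between them as printed, but the levels against the pool would change sign. The label sets are 3. Set A (74 arrays) and set B (77 arrays) divide block 1 by the wording of the description, and set C is block 2. The low group held 19, 18 and 35 arrays of sets A, B and C, and the high group 18, 19 and 35. The spread of an array's values over its probes was alike, with a median SD of 0.0685 in the low group and 0.069 in the high one. Each mouse gave 1 array, so the p-values measure the spread between mice. Signal intensities were not used, and ratios to a pool of the same brains cannot show whether a marker of a cell type lay near background. In whole brain RNA, fewer microglia and less transcript per cell cannot be told apart.

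The Trem2 ratio in the low group ran from -0.339 to -0.0587 with a median of -0.146, and in the high group from -0.0438 to 0.176 with a median of 0.0491. The pooled groups did not overlap, which the choice of arrays largely fixes. The groups differed by 0.181, or 1.52-fold, and by 0.168, 0.191 and 0.181 in label sets A, B and C. These values chose the groups and carry no test. In block 1 the limits lay between ratios of -0.0587 and -0.058 on the low side and between 0.0407 and 0.0415 on the high side. In block 2 they lay between -0.139 and -0.138, and between -0.0446 and -0.0438. Set C had the lower Trem2 ratios, with a median of -0.0937 against -0.00506 in set A and -0.0179 in set B. The SD of the Trem2 probe over all arrays was 0.0845, against 0.0495 for the median probe.

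**Figure D1:**
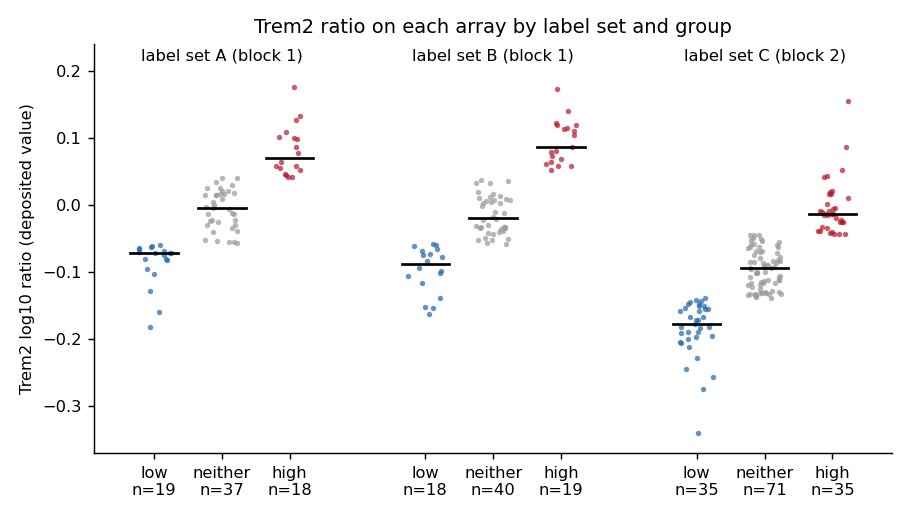
Trem2 log10 ratio on each of the 292 arrays (points), by label set and by group, with the median as a black bar. The high group of set C sits at the level of the arrays in neither group of sets A and B, because ranks were taken within each block.

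Genes were compared between the groups with limma, with the block as a covariate and Benjamini-Hochberg adjustment over all probes, and a gene was called at an adjusted p under 0.05. The difference between high and low Trem2 mice was broad and small: 44.2% of the 10834 named genes other than Trem2 were called, 24.4% higher and 19.8% lower in the high group. The median gene differed by 0.0157 in either direction, or 1.04-fold, and 14.2% of the genes were both called and at least 1.1-fold apart. Of 128 microglial genes listed by role, 98 were measured. Among these, 43 (43.9%) were higher with high Trem2, 7 (7.14%) were lower and 48 did not pass the test, to be read against the 24.4% and 19.8% of all genes. The median difference of the 98 was 0.0154, or 1.04-fold, against 0.00216 over all named genes. Of the 43 higher genes, 19 were at least 1.1-fold higher, a mark that 7.09% of all genes passed upwards and 7.07% downwards. The same sign in all 3 label sets was found for 36 of the 43, beside 85.1% of all genes called higher.

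Markers of the homeostatic microglial state differed from one another. Tmem119, a membrane protein of homeostatic microglia, ran from -0.258 to 0.0502 (median -0.104) in the low group and from -0.168 to 0.173 (median -0.0127) in the high group. The ranges overlapped, and 65 of 72 high-group mice lay above the low group's median. The difference was 0.101 ± 0.00915 (SE), or 1.26-fold (adjusted p = 2.61e-17, limma). Cx3cr1, the receptor for the neuronal chemokine fractalkine and another homeostatic marker, differed by 0.00616 ± 0.00472 (adjusted p = 0.298), and its groups overlapped almost whole. In block 1 alone it was higher by 0.0179 (adjusted p = 0.0318), and in block 2 alone it differed by -0.00625 (adjusted p = 0.48). P2ry6, a purinergic receptor that triggers microglial uptake of debris, was higher by 0.0639 (1.16-fold, adjusted p = 1.02e-06). Csf1r, the receptor for the growth factor on which microglial survival depends, ran from -0.186 to 0.0846 (median -0.0309) in the low group and from -0.0464 to 0.208 (median 0.0137) in the high group. It was higher by 0.0441 ± 0.00692 (adjusted p = 5.23e-08), and again 65 of 72 high-group mice lay above the low group's median.

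Of the signalling partners of Trem2, Tyrobp and Plcg2 were higher, and Syk on 1 of its probes. Tyrobp, its adaptor, ran from -0.122 to 0.279 (median -0.00769) in the low group and from -0.114 to 0.223 (median 0.0486) in the high group. The spread of the groups was alike and only 55 of 72 high-group mice exceeded the low group's median. The difference was 0.0459 ± 0.0111, or 1.11-fold (adjusted p = 3.26e-04). Fcer1g, a related adaptor used by Fc receptors, was higher by 0.0441 (adjusted p = 6.37e-06). Plcg2, the phospholipase downstream, was higher by 0.0197 (adjusted p = 1.11e-04). Syk was higher by 0.0369 (adjusted p = 0.00119) on its more variable probe, while its other probe gave -0.000517 (adjusted p = 0.95), so the probes disagree. Fcgr1, the high-affinity Fc receptor, had the largest difference of the list after Tmem119, 0.0713 ± 0.01 or 1.18-fold (adjusted p = 1.83e-09). It ran from -0.25 to 0.0864 (median -0.0576) in the low group and from -0.0991 to 0.129 (median 0.000425) in the high group, where 68 of 72 mice exceeded the low median. In the receptor and signalling list as a whole, 20 of 31 measured genes were higher and 3 were lower.

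Ptprc, the leukocyte phosphatase CD45, went the other way. Its ratio ran from -0.145 to 0.254 (median 0.0387) in the low group and from -0.173 to 0.19 (median -0.0138) in the high group, so that 55 of 72 high-group mice lay below the low group's median. It was lower by 0.0472 ± 0.0106 (SE), or 0.897-fold (adjusted p = 1.05e-04). The difference was -0.0869 in block 1 and -0.00521 in block 2.

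**Figure D2:**
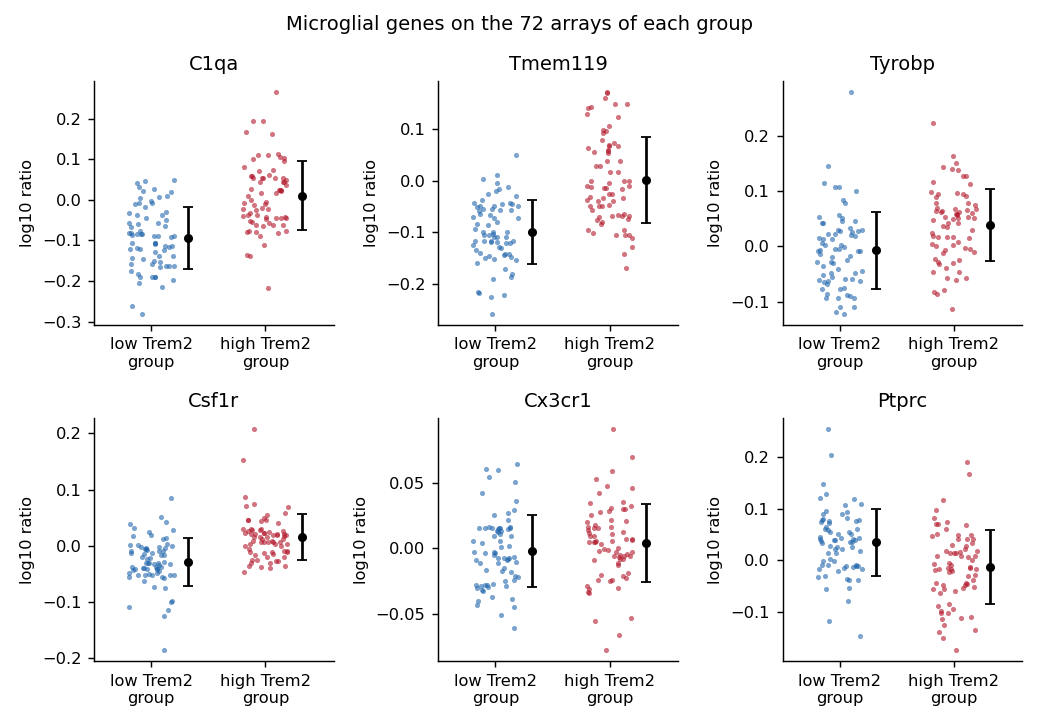
Log10 ratio (vertical axis) of 6 microglial genes on each array of the low (72) and the high (72) Trem2 group, with the mean and SD of each group in black. Tmem119, C1qa, Csf1r and Tyrobp sit higher in the high group with overlapping ranges, Ptprc sits lower, and the Cx3cr1 groups overlap almost whole.

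The complement list had the largest median difference of the 6 microglial lists, 0.0491, with 5 of 7 measured genes higher and none lower (1 at an unadjusted p under 0.05). C1qa ran from -0.28 to 0.048 (median -0.0907) in the low group and from -0.216 to 0.265 (median 0.00455) in the high group. The ranges overlapped, but 68 of 72 high-group mice lay above the low group's median. C1qa was higher by 0.104 ± 0.0119, or 1.27-fold (adjusted p = 1.27e-12), and by 0.113, 0.106 and 0.098 in label sets A, B and C. C1qc ran from -0.322 to 0.172 (median -0.0811) in the low group and from -0.241 to 0.169 (median 0.0135) in the high group, a difference of 0.0894 ± 0.0158 (adjusted p = 1.05e-06). C1qb ran from -0.188 to 0.177 (median -0.0319) and from -0.0815 to 0.173 (median 0.00971), a difference of 0.0559 ± 0.0102 (adjusted p = 2.15e-06). All 3 C1q chains were thus higher with high Trem2, in 58 to 68 of 72 mice by the same measure. C4b, a component acting after C1q, was higher by 0.0491 (adjusted p = 1.39e-04), and C5ar1, the receptor for the anaphylatoxin C5a, by 0.0155 (adjusted p = 0.0378), though in block 2 alone it differed by -0.00585.

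Of 19 measured lysosomal genes, 6 were higher (31.6%), 2 were lower (10.5%) and 11 did not pass the test, beside 24.4% and 19.8% of all named genes. Ctsz, a lysosomal cathepsin, ran from -0.144 to 0.0974 (median -0.0593) in the low group and from -0.0606 to 0.139 (median 0.0192) in the high group. In all but 1 of the 72 high-group mice it lay above the low group's median and it was higher by 0.0758 ± 0.00728 or 1.19-fold (adjusted p = 6.05e-16). Cst3, cystatin C, a secreted inhibitor of cathepsins, ran from -0.175 to 0.193 (median 0.0647) in the low group and from -0.254 to 0.14 (median -0.0144) in the high group. It was lower in 66 of 72 high-group mice than the low group's median, by 0.0858 ± 0.0141 (adjusted p = 1.79e-07). Ctsl, another cathepsin, was lower by 0.0384 (adjusted p = 1.5e-05). Ctss, the cathepsin most typical of microglia, differed by 0.0202 (adjusted p = 0.0828), Cd68, a phagosomal membrane glycoprotein, by 0.00183 (adjusted p = 0.89) and Grn, progranulin, by -0.000573 (adjusted p = 0.951). Ctsh, a further cathepsin, did not pass the test on its more variable probe but was called higher on its other probe.

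Of 9 transcription factors of microglia, 4 were higher and none was lower by limma (0 at an unadjusted p under 0.05). Irf5, which drives inflammatory genes in macrophages, was higher by 0.0621 ± 0.00748 (SE), or 1.15-fold (adjusted p = 1.01e-11). Irf8, needed for microglial development, was higher by 0.0365 (adjusted p = 1.58e-05) and Spi1 by 0.0118 (adjusted p = 0.0282), though in block 2 alone Spi1 differed by -0.00492. Sall1, which maintains microglial identity, differed by -0.00873 (adjusted p = 0.404).

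Of 19 genes of the damage-associated state, 5 were higher (26.3%) and 2 were lower (10.5%), so that the share higher was near the 24.4% of all named genes. Gpnmb, a glycoprotein of lipid-laden phagocytes, ran from -0.181 to 0.273 (median -0.0541) in the low group and from -0.271 to 0.362 (median 0.0445) in the high group, a difference of 0.0936 ± 0.0155 or 1.24-fold (adjusted p = 2.36e-07). Cst7, a cystatin induced in this state, was higher by 0.0758 ± 0.0182 (adjusted p = 3.11e-04) and Itgax, the integrin CD11c, by 0.055 ± 0.00998 (adjusted p = 1.99e-06). Igf1, a growth factor, was higher by 0.0246 (adjusted p = 2.36e-05). Lpl, lipoprotein lipase, was lower by 0.0468 ± 0.0146 (adjusted p = 0.00583). Apoe, a lipoprotein that Trem2 binds, differed by 0.00986 (adjusted p = 0.428), Axl, a receptor for dying cells, by 0.000211 (adjusted p = 0.976), and Clec7a, a pattern receptor, by 0.013 (adjusted p = 0.262). Of 13 genes of phagocytosis, 3 were higher (23.1%), near the same 24.4%, and 10 did not pass the test. Arpc1b, uncalled on its most variable probe, was called higher on another of its 3 probes. The 3 were the GTPase Rac2 by 0.0534 (adjusted p = 4.82e-08), the scavenger receptor Stab1 by 0.0428 (adjusted p = 2.16e-06) and the engulfment protein Elmo1 by 0.0361 (adjusted p = 1.96e-06). Mertk, a receptor for apoptotic cells, differed by 0.0154 (adjusted p = 0.386).

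**Figure D3:**
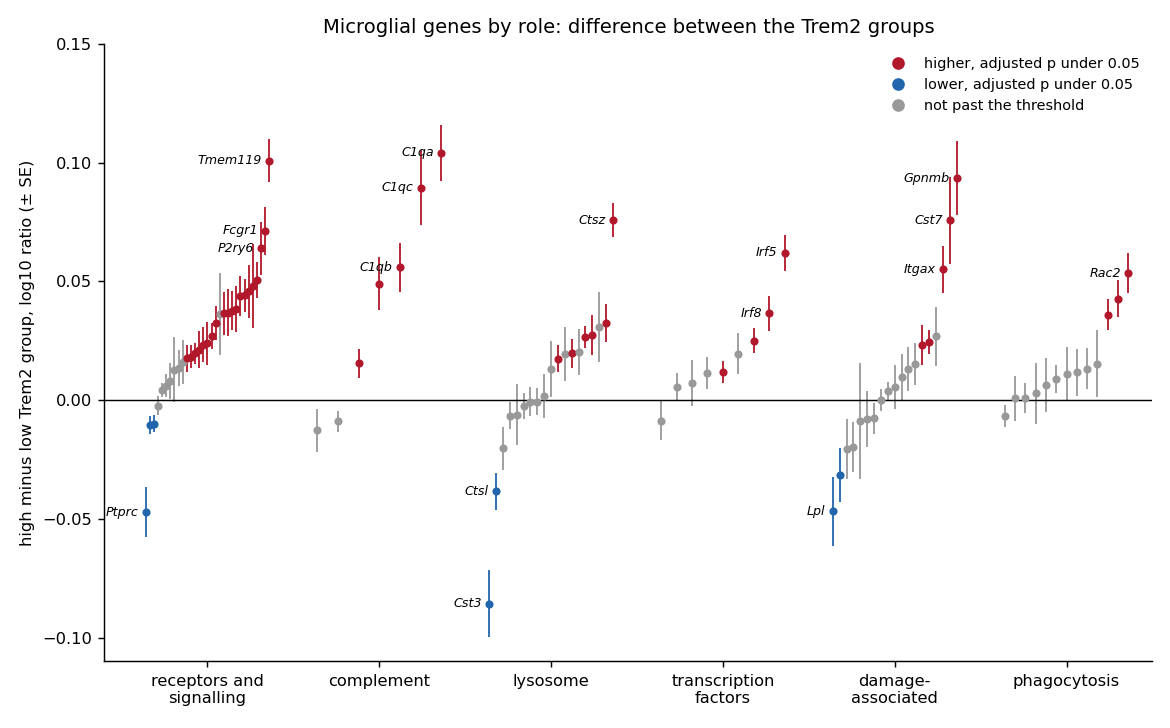
Difference in log10 ratio between the high and the low Trem2 group (vertical axis, ± SE) for the 98 measured microglial genes by role, coloured by the limma call at an adjusted p under 0.05. The largest positive values are C1qa at 0.104 and Tmem119 at 0.101, and the largest negative one is Cst3 at -0.0858.

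Markers of other cells were set beside these, with 24.4% of all named genes higher and 19.8% lower. Of 8 measured genes of perivascular macrophages, which share many genes with microglia, 5 were higher (62.5%) and 1 was lower. That share was close to the 64.5% higher of the microglial receptor and signalling list. Siglec1 was higher by 0.0371 (adjusted p = 2.59e-04) and Lyve1 by 0.0404 (adjusted p = 0.0264), and Mrc1, their mannose receptor, was lower by 0.0422 (adjusted p = 1.48e-05). The mean ratio of the 8 genes ran from -0.0643 to 0.0593 over the low group and from -0.0611 to 0.0584 over the high group. Their part in the microglial differences was not tested. Of 17 genes of blood leukocytes, 2 were higher (11.8%), among them the monocyte receptor Ccr2 by 0.0205 (adjusted p = 0.00131), and 2 were lower (11.8%), both below the shares of all genes. Their mean ratios ran from -0.137 to 0.254 in the low group and from -0.153 to 0.0943 in the high group. By limma none of 4 erythrocyte genes and none of 8 pituitary genes was called (0 and 1 at an unadjusted p under 0.05). General neuronal genes were the list with the largest share lower, 8 of 13, with none higher (0 at an unadjusted p under 0.05). Syt1, the synaptic calcium sensor, was lower by 0.139 ± 0.0193 (adjusted p = 1.43e-09), the neurofilament chain Nefm by 0.113 (adjusted p = 2.33e-08) and Snap25, of the synaptic fusion complex, by 0.0463 (adjusted p = 5.97e-04). Of the mean ratios of the 13 genes, the low group ran from -0.0633 to 0.0654 and the high group from -0.0902 to 0.0441.

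Lists with no cell type were also uneven, and their counts are to be read against the 24.4% higher and 19.8% lower of all named genes. Of 13 immediate early genes, which neurons switch on with activity, 7 were higher and none was lower (0 at an unadjusted p under 0.05), with Egr4 higher by 0.0819 (adjusted p = 5.61e-04) and Arc by 0.0718 (adjusted p = 0.0354). Of 15 genes of oxidative phosphorylation, 9 were higher and 1 was lower, and Atp5e, an ATP synthase subunit, was higher by 0.0704 (adjusted p = 3.11e-08). Block 1 alone called 9 of the 15 higher and block 2 alone 2, with 1 lower in each, beside 25.2% and 11.1% of all genes higher. Atp5e differed by 0.112 in block 1 and by 0.026 in block 2 (adjusted p = 0.14, limma). With the first principal component, described below, as a further covariate, 2 of the 15 were higher and 4 were lower. Of 21 proteasome genes 10 were lower, such as Psma5 by 0.0504 (adjusted p = 3.6e-09), and 3 were higher. Of 26 genes of inflammation and Toll-like receptor signalling, 2 were higher (7.69%) and 6 were lower (23.1%), the latter near the share of all genes. Tlr3 was lower by 0.0655 (adjusted p = 1.79e-05) and Tlr4, the endotoxin receptor, by 0.0398 (adjusted p = 7.17e-05). C3H/HeJ mice are known to carry a defective Tlr4, but genotypes were not analysed and the part of that allele in the Tlr4 difference was not tested. Among 7 genes for lipoproteins and lipid transporters linked to Trem2, 3 were higher and 2 were lower, and the cholesterol exporter Abca1 was lower by 0.0414 (adjusted p = 1.52e-05).

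**Figure D4:**
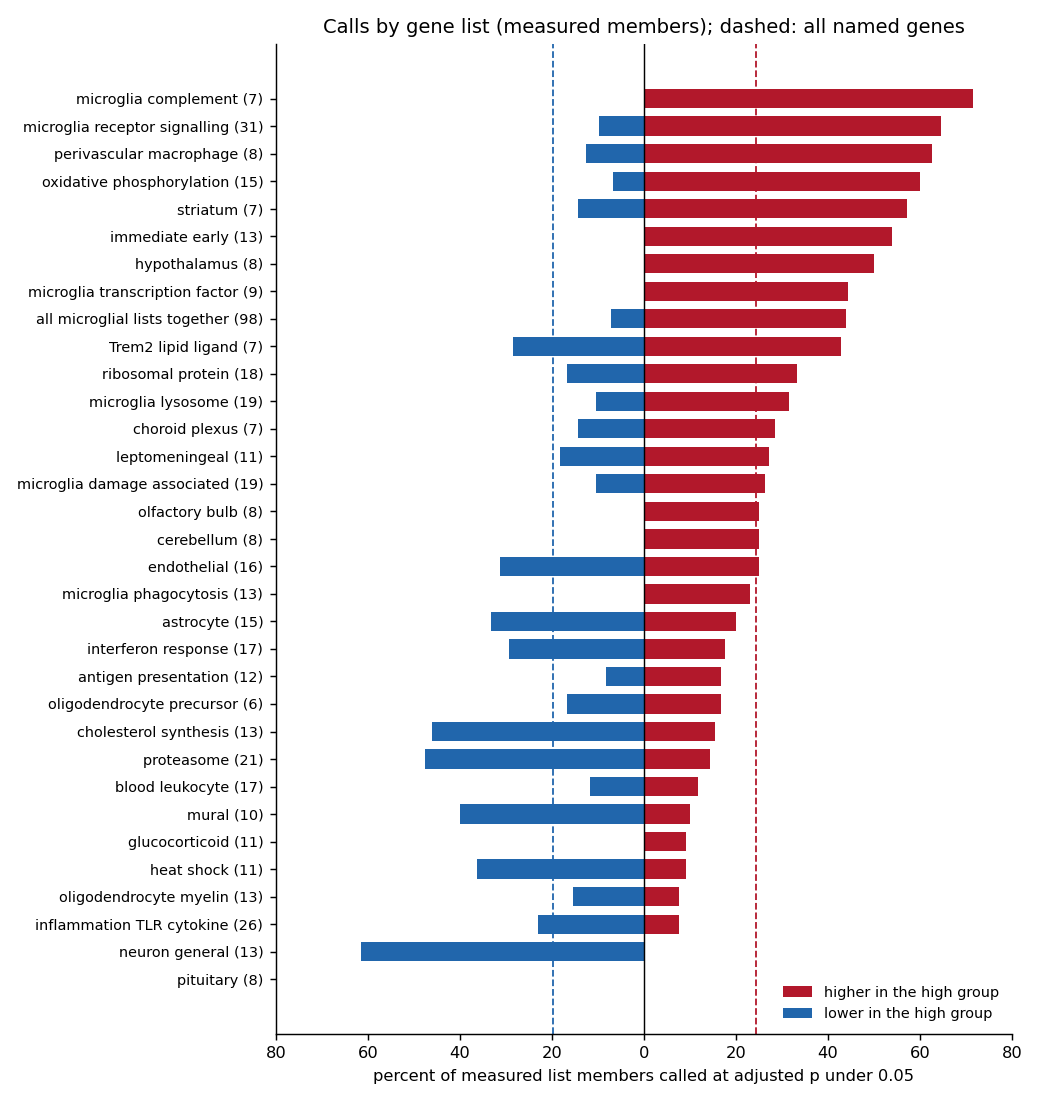
Percent of the measured members of each gene list (number in brackets) called higher (right) or lower (left) in the high Trem2 group at an adjusted p under 0.05, for lists of at least 6 measured genes. The dashed lines mark the 24.4% and 19.8% of all named genes, and the complement list, at 71.4%, has the largest share higher.

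The genes with the largest differences were not microglial markers. Among genes called with one sign in all 3 label sets, the highest were Slc24a5, a cation exchanger of pigment cells (0.275, or 1.88-fold), the homeobox factor Irx3 (0.252), the neuronal surface protein Ly6h (0.228), the spliceosomal helicase Aqr (0.216), the Polycomb-associated Phf1 (0.209) and the synaptic calsyntenin Clstn3 (0.199). The lowest were the phospholipase Pla2g4e (-0.27, or 0.537-fold), the glycosylation enzyme Alg8 (-0.24), the co-chaperone Dnajc7 (-0.228), the disulfide isomerase Pdia3 (-0.216), the heme oxygenase Hmox1 (-0.208) and Zc3h7b (-0.169). Adjusted p-values of these 12 lay between 4.02e-11 for Dnajc7 and 8.26e-07 for Ly6h. Over all 292 arrays, after each label set was centred, Pearson's r with Trem2 was highest for Tmem119 (0.639), followed by the deacetylase Hdac11 (0.631), Ppdpf (0.631) and Ctsz (0.623), and lowest for the translation factor Eif2s2 (-0.64) and the oligodendrocyte precursor receptor Pdgfra (-0.58). C1qa stood at place 25 with 0.536, and 4 microglial genes were among the 100 highest. The arrays share one reference pool, and these correlations are descriptions.

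The neighbours of Trem2 on chromosome 17 were examined because F2 mice inherit neighbouring genes together. Of the 20 protein-coding genes nearest to Trem2 in gene order, 10 were measured. Among these 5 were higher and 1 was lower, beside 24.4% and 19.8% of all named genes. Mdfi, a regulator of myogenic factors, was higher by 0.124 (adjusted p = 3.57e-06), Lrfn2, a synaptic adhesion protein, by 0.0615 (adjusted p = 6.26e-08), Unc5cl by 0.0468 (adjusted p = 0.00646) and Daam2 by 0.0426 (adjusted p = 5.37e-07). Within the receptor cluster itself, Treml1 was higher by 0.0148 (adjusted p = 0.00544), Trem3 was lower by 0.0207 (adjusted p = 4.19e-04), and Trem1 differed by 0.00335 (adjusted p = 0.549). Of the 515 measured genes of the chromosome 44.5% were called, against 44.2% of all genes.

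The difference was not the same in both blocks. Block 1 alone called 44.2% of the named genes, 25.2% higher and 18.9% lower, and block 2 alone 22.6%, with 11.1% higher and 11.5% lower. Label set A alone called 24.2%, 13.6% higher and 10.5% lower, and set B alone 30.4%. A test of the difference between the blocks' effects, the interaction of block and group, called 30.1% of the genes and 33 of the 98 microglial ones. Of the 98 microglial genes, 34 were called higher in block 1 and 39 in block 2, with 8 and 4 lower. Beside the 25.2% and 11.1% of all genes called higher in these blocks, the microglial excess was smaller in block 1. Of the 43 genes higher in the pooled comparison, 18 were called higher in both blocks. C1qa differed by 0.11 in block 1 and 0.098 in block 2 (interaction adjusted p = 0.739), and Tmem119 by 0.12 and 0.081 (interaction adjusted p = 0.0937). Fcgr1 differed by 0.0275 in block 1 and 0.118 in block 2 (interaction adjusted p = 9.68e-05), and Fcrls, an Fc receptor-like molecule of mouse microglia, by -0.0106 and 0.11 (interaction adjusted p = 0.00442). Over the named genes, the differences of sets A and B correlated at r = 0.833, and those of blocks 1 and 2 at r = 0.394. Those are correlations across genes, which are not independent replicates.

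The 148 mice in neither group are other arrays than those compared, but they were set between the groups by the same Trem2 ranking and the same probe gives the slopes, so they are no independent support. In them each gene was regressed on the Trem2 ratio with the block as a covariate, and the slope was scaled to the Trem2 difference of 0.181 between the groups. In these mice 5.34% of the named genes were called, 2.89% higher and 2.46% lower. Of the 98 microglial genes 13 had a called positive slope and 1, Ctsl, a called negative one. All 43 microglial genes that were higher between the groups had a positive slope here, whereas 93.4% of all the genes higher between the groups did. The scaled slope was 0.129 for Tmem119 (adjusted p = 0.00183), 0.124 for C1qa (adjusted p = 0.0212), 0.12 for C1qb (adjusted p = 0.00678) and 0.149 for C1qc (adjusted p = 0.0378). It was 0.0692 for Csf1r (adjusted p = 0.00906), 0.108 for Ctsz (adjusted p = 0.00148) and 0.0848 for Rac2 (adjusted p = 0.0131). Tyrobp had 0.0733 (adjusted p = 0.156), Gpnmb 0.0109 (adjusted p = 0.95) and Cst7 0.0603 (adjusted p = 0.729), so these slopes did not pass the test in the mice with middling Trem2.

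The broad difference lay along the main axes of variation of the arrays. The first 3 principal components of all probes except Trem2 held 12.1%, 8.43% and 6.25% of the variance. With the blocks centred and pooled, the Trem2 ratio correlated with them at r = 0.303, 0.147 and 0.5. The blocks were unlike in the first 2. The mean of the first was -0.388 in the low and 0.71 in the high group of block 1, and -0.138 and 0.128 in block 2. That of the second was -0.441 and 0.614 in block 1, and in the opposite order, 0.119 and -0.24, in block 2. The third component ran from -3.01 to 0.976 in the low group and from -0.862 to 3.33 in the high group. With these components added to the fit, a setting chosen after the data were seen, 2.05% of the named genes were called, 115 higher (1.06%) and 107 lower (0.988%). Of the 98 microglial genes, 19 were higher and 1 was lower. Not all of the 19 were among the 43 higher without the components. Clec7a, Ctsc, Ctss and Gpr84 were uncalled there and Ptprc was lower. C1qb (0.0257, adjusted p = 0.334), C1qc (0.067, adjusted p = 0.0556) and Csf1r (0.0212, adjusted p = 0.208) did not pass the limma test with the components. The 19 held 11 receptor and signalling genes and 1 complement gene, and no transcription factor or phagocytosis gene. Block 2 alone called 16 microglial genes higher and 1 lower among 143 genes (1.32%), and block 1 alone 1 higher among 4 genes (0.0369%). The 19 made up 16.5% of the higher genes and 19.4% of the microglial list, which held 0.905% of all named genes. Fcgr1 was higher by 0.0917 (adjusted p = 6.59e-10), Ctss by 0.0807 (adjusted p = 2.54e-08), Itgax by 0.0646 (adjusted p = 4.4e-05), the tetraspanin Cd53 by 0.0553 (adjusted p = 5.3e-05), Tmem119 by 0.0439 (adjusted p = 8.14e-05), Tyrobp by 0.041 (adjusted p = 8.38e-05) and C1qa by 0.048 (adjusted p = 0.0231). Ptprc changed sign and was higher by 0.0326 (adjusted p = 0.0187), and Cst3 was again lower, by 0.107 (adjusted p = 4.4e-05). Of the genes named with values and called without the components, C5ar1, Lpl, Mrc1, Snap25, Tlr3 and Tlr4 also took the opposite sign in this fit, and none of those 6 passed the test. Of all named genes called in either fit, 130 were called with the same sign in both and 19 with opposite signs.

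In the mice of neither group the same covariates left 6 called genes (0.0554%), and 3 of them were microglial: Fcgr3, a low-affinity Fc receptor, with a scaled slope of 0.0959 (adjusted p = 0.00175), Fcgr1 with 0.135 (adjusted p = 0.0036) and C1qb with 0.128 (adjusted p = 0.0256). The others, named here after their values were seen, were Ly86, a myeloid partner of a Toll-like receptor homologue (0.0786, adjusted p = 0.0181), the dopamine receptor Drd2 (0.107, adjusted p = 0.0422) and Eaf2, an elongation factor partner (-0.082, adjusted p = 0.0422).

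Of the genes called with the 3 components, a larger share lay on chromosome 2 than of all named genes. The chromosome held 8.17% of the named genes and 64 of the 222 called ones (28.8%), 37 higher and 27 lower. On it 7.23% of the genes were called, against 0.51% to 2.25% on each other chromosome with at least 100 measured genes, and 1.75% on chromosome 17, which holds Trem2. Of the 64, 46 were also called without the components. Without the components, 45.3% of the genes of chromosome 2 were called, close to the 44.2% of all genes. In block 2 alone, 49 of 143 called genes (34.3%) lay on chromosome 2, and in block 1 alone 3 of 4. In gene order, the 100 measured genes from Spred1 to Ebf4 held 19 of the 64, the 100 before them 13, and the first 400 of the chromosome 7 together. The chromosome was singled out after its count was seen, and genotypes were not analysed here.

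Several of the largest differences lay on this chromosome, 7 of the 24 genes with the largest differences of one sign in the 3 label sets (12 higher and 12 lower). Aqr ran from -0.573 to 0.32 (median -0.0408) in the low group and from -0.43 to 0.306 (median 0.041) in the high group. Its ranges overlapped almost whole, while 57 of 72 high-group mice exceeded the low median. With the components it was higher by 0.321 (adjusted p = 8.25e-08). Pla2g4e ran from -0.724 to 0.38 (median 0.0688) in the low group and from -0.702 to 0.244 (median -0.0389) in the high group. It differed by -0.27 without the components. In the fit with the components it was lower by 0.337 (adjusted p = 3.65e-06), and Scg5, a secretory-granule chaperone, by 0.2 (adjusted p = 3.35e-06). Slc24a5 was higher by 0.311 (adjusted p = 1.26e-05) and the receptor kinase Ltk by 0.108 (adjusted p = 4.03e-05), while Mapk8ip1, a kinase scaffold, differed by 0.0112 (adjusted p = 0.924) in this fit. The microglial genes Ctsz, Cst7 and Cst3 and the genes Ppdpf and Eif2s2 of the correlation above lie on chromosome 2 as well. In the mice of neither group, the scaled slope, fitted without the components, was -0.0192 for Aqr, -0.0133 for Pla2g4e, 0.0059 for Scg5, 0.0854 for Slc24a5 and 0.0291 for Ltk. Of the 64 genes, 36 (56.25%) had a slope of the same sign as their difference between the groups with the components. Elsewhere 99 of the 158 called genes did (62.7%). Some of the 64 had the opposite sign between the groups without the components, a sign that this count does not use.

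**Figure D5:**
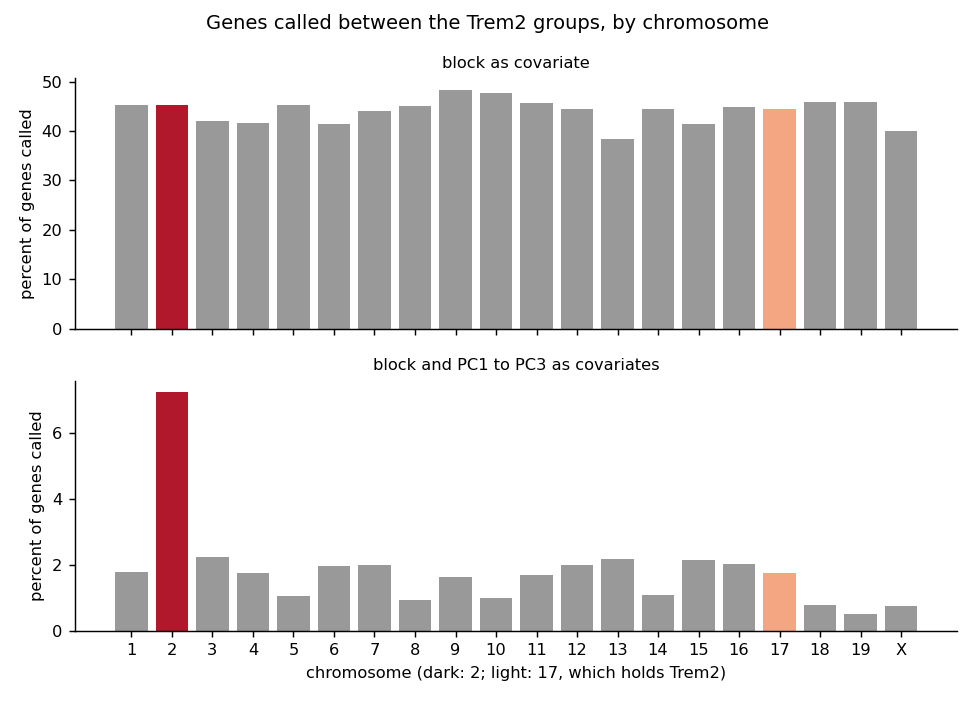
Percent of the named genes of each chromosome called between the Trem2 groups at an adjusted p under 0.05, with the block alone (top) and with the block and the first 3 principal components (bottom) as covariates. Chromosome 2 stands at 45.3% in the top panel, level with the rest, and at 7.23% in the bottom panel, where the others reach at most 2.25%.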

How the data were processed

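Brain RNA of 292 mice was measured, 1 array each, per the labels with the mouse in Cy3 and the pool in Cy5. The deposited values were read as log10 of mouse over pool. How the authors analysed the images, corrected background and normalized is not given in the sources used here. Of 23574 probes, the 25 missing on over 5% of arrays were left out, and 252 values were filled with the probe mean. Genes were named through the platform annotation and RefSeq gene IDs (assembly GRCm38.p6, for names and gene order). Of the 13647 probes with 1 gene, 12645 matched, giving 10835 genes. The probe of largest SD stood for a gene.

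Tests used limma 3.58.1 (lmFit, eBayes) in R 4.3.3, high minus low group with the block as covariate, adjusted over 23549 probes. Interaction and slope were fitted likewise. Figures were drawn with matplotlib 3.10.9. On data simulated for the high versus low comparison over 23549 probes, 75 of 100 probes changed 1.1-fold and 96 of 100 changed 1.3-fold were called. Of the 23349 unchanged probes, 11 were called. The simulated noise was independent between probes, whereas the probes of these arrays vary together, so the shares need not hold for the real data. Alternatives changed covariates, arrays, grouping, centring, scaling, weights, filters, moderation, the gene summary and the fold.

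The groups, the gene lists and the members were chosen with earlier results of these data known. The text names the microglial genes a result turns on, the 12 genes highest and the 12 lowest with one sign in the 3 label sets, the 10 neighbours on either side, the 10 genes most and the 5 least like Trem2 by r, up to 4 genes of each other list by size, and up to 8 by interaction, and gives values for a part of them. Genes named for chromosome 2 or for the slopes with 3 components are exceptions, chosen after their values were seen.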

Additional observations from a re-analysis of the deposited data

Results flagged for a closer look

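The effect of the Trem2 group differed between the mouse-number blocks, by the interaction test of limma, for 23 of the 83 genes named with values in this text, beside 30.1% of all named genes. Values are the block 2 difference minus the block 1 difference, in log10 ratio. Microglial genes with a more positive difference in block 2 were Fcrls (0.121), Mertk (0.111), Fcgr1 (0.0901), Ptprc (0.0817), Ctsl (0.0669), Ctss (0.0665), Fcgr3 (0.0614) and Cd53 (0.0593). Microglial genes with a more negative difference in block 2 were Apoe (-0.0552), C5ar1 (-0.0415), Irf5 (-0.03996), Elmo1 (-0.0345), Spi1 (-0.0326) and Cx3cr1 (-0.0242). Among the other genes, the value was more positive in block 2 for Tlr3 (0.0848), Snap25 (0.0765), Mrc1 (0.0737), Eif2s2 (0.0713), Ly86 (0.0663), Tlr4 (0.0492) and Pdgfra (0.0307), and more negative for Atp5e (-0.0863) and Hdac11 (-0.0322). The blocks differ in mouse number and in the level of the Trem2 ratio, and the part of either was not tested.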

How the results depend on the processing

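No paired analysis was possible because the groups share no replicate numbers. The ranking by another Trem2 probe was not run, since Trem2 had 1 probe. With the block as covariate, limma called 4787 genes (2639 higher, 2148 lower) and 50 microglial genes (43 higher, 7 lower). Block 2 alone called 2447 (1203 higher, 1244 lower), with 4 microglial genes lower. Label set A alone called 2617 (1478 and 1139) and 24 microglial genes (21 and 3), and set B alone 29 microglial genes (22 higher). These fits hold fewer arrays. A limit of 1.1-fold left 1534 genes (768 and 766) and 22 microglial ones (19 and 3), and groups of the lowest and highest 10% in place of 25% called 4 microglial genes lower. With the block and the first 3 principal components, chosen after the data were seen, 222 genes (115 and 107) and 20 microglial ones (19 and 1) were called, and the cause was not tested. In the mice of neither group, 579 genes had a called slope, 316 with arrays scaled to equal spread, 328 with the first component and 6 with 3 components. Counts under the other settings stayed within 1.5 times of these.

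Of 1743 gene and setting pairs, 1511 kept sign and call, 161 lost the call and 14 gained it with the same sign. In 35 pairs, of Cx3cr1, Ctss, Cd68, Grn, Sall1, Apoe, Axl, Clec7a, Mertk and Trem1 (10 genes), the sign turned with no call in either fit. In the other 22, called in at least 1 of the fits, the sign turned in label set A alone for Fcgr3 (-0.0122), Arc (-0.00339), Ly86 (-0.0129) and Eaf2 (0.00448), and in set B alone for Fcgr3 (-0.00461), Fcrls (-0.0254) and Ly86 (-0.0194). It turned in block 1 alone for Fcgr3 (-0.0086), Fcrls (-0.0106), Mertk (-0.0386) and Ly86 (-0.0159), and in block 2 alone for C5ar1 (-0.00585) and Spi1 (-0.00492). With the first component it turned for Spi1 (-4.21e-07) and Axl (-0.00994). With 3 components it turned for Ptprc (0.0326), C5ar1 (-0.0101), Lpl (0.0145), Mrc1 (0.00522), Snap25 (0.0067), Tlr3 (0.00127) and Tlr4 (0.00566). The cause of these turns was not tested. The pooled counts hide unequal settings. Robust moderation, for example, left all 83 genes the same. With the block and 3 components 31 of the 83 stayed the same, 43 lost the call, 2 gained it and 7 turned sign. In label set A alone 55 stayed the same, and in set B alone and block 2 alone 59 each. Genes uncalled in both fits count as the same here, whatever their sign. Signal over background is unknown, so a small difference of a dim probe cannot be set apart from that of a bright one.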
